A study of Homo sapiens with 8 samples.

Results

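The long noncoding RNAs MALAT1, NEAT1, H19, MEG3, MIR205HG, MIR31HG, HOTAIR, UCA1 and GAS5 were described in 8 RNA-seq libraries labelled as HSC3, an established line from an oral squamous cell carcinoma. These 9 genes, chosen by name, were found by Ensembl identifier among the 63241 gene rows of a deposited table, and all 9 were present. By their labels, 4 libraries came from cells given si-Col1a1, an siRNA against the collagen gene COL1A1, and 4 from cells given the control siRNA si-NC. Both groups received 100 pmol of siRNA with Lipofectamine 3000 and were collected after 48 hours. The labels give no other treatment and do not say whether replicates were separate cultures. The p-values therefore cover the spread of these libraries alone. Levels are in CPM, the counts of a gene scaled to the total of its library, unless said otherwise, and groups are called by their labels (knockdown and control, replicates 1 to 4).

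Long noncoding RNAs act as RNA and are not translated into protein. MALAT1 and NEAT1 stay in the nucleus, the first in nuclear speckles and the second as the scaffold of paraspeckles, and their genes are neighbours. H19 and MEG3 are imprinted, each expressed from the maternal allele, and are abundant in the embryo and in muscle. MIR205HG and MIR31HG are hosts of the microRNAs miR-205 and miR-31, of which miR-205 is characteristic of squamous epithelium. HOTAIR lies among the HOXC genes, UCA1 was first described in bladder carcinoma, and GAS5 carries small nucleolar RNAs (snoRNAs) in its introns.

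Library depth ran from 30684584 to 61795990 counts. The libraries went against the single-line label in their cell type markers, within both groups. Skeletal muscle markers (9 matched of 10) took 14.5% and 14.6% of counts in controls 1 and 3, 3.79% and 4.55% in knockdowns 2 and 4, 0.403% in control 2, and 0.0031% to 0.00403% in knockdowns 1 and 3 and control 4. Markers of salivary gland reached 11.8% in control 1 and 11.1% in knockdown 2. Squamous epithelium markers (10 matched of 10) ran from 0.0574% in control 1 and 0.143% in knockdown 2 to 12.3% in knockdown 1. In the results below, muscle-rich means the 4 libraries with over 1% of counts in the muscle markers (knockdowns 2 and 4, controls 1 and 3), a division read from the markers and not one of the study's groups. The same 4 libraries also had the most Schwann cell markers (0.00237% to 0.0108% of counts, against at most 0.00136%). Smooth muscle markers divided the same way (0.0974% to 0.485%, against at most 0.0474%), but their list shares DES with the skeletal muscle list. DES made 903 of the 974 CPM of that list in knockdown 4 and 2724 of 2764 CPM in control 3. ACTA2 of the same list overlapped (13.6 to 304 against 2.80 to 54.7 CPM), so the smooth muscle sum is not read as a separate trait. Fat cell markers were mixed. The hormone ADIPOQ was at 3.78 to 36.3 CPM in the muscle-rich libraries and at 0 in the other 4. FABP4 went the other way in part, highest in controls 4 and 2 (241 and 124 CPM), and the summed fat cell markers were highest in control 4 (0.0275% of counts). Some markers other than those of skeletal muscle thus went with the division, and others did not. COL1A1, the siRNA target, stood at 123 to 368 CPM under the knockdown label and at 89.0 to 8183 CPM under the control label, so the groups overlapped. Controls 2, 3 and 4 (8183, 476 and 689 CPM) lay above every knockdown library and control 1 below all of them, with a log2 fold change of -2.97 that missed the threshold (edgeR adjusted p = 0.981). Fibroblast markers, a list without COL1A1, took 0.0383% to 0.111% of counts in knockdown and 0.104% to 1.24% in control, with the most in control 2. Among them, the collagen genes COL1A2 and COL3A1 stood at 5108 and 5116 CPM in control 2 and at most at 244 and 234 CPM in knockdown. The part of fibroblasts in the COL1A1 difference was not tested. In these bulk libraries, fewer cells of a type and less RNA per cell cannot be told apart.

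MIR205HG, MIR31HG and H19 carry microRNA hairpins, and the mature sequences are shown because the counts table has a separate row for each hairpin. Capitals mark the seed (bases 2 to 8), and sequences and positions are from RefSeq (GRCh38.p14).
hsa-miR-205-5p: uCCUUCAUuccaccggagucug
hsa-miR-205-3p: gAUUUCAGuggagugaaguuc
hsa-miR-31-5p: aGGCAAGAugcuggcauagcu
hsa-miR-675-5p: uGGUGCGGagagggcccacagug
hsa-miR-675-3p: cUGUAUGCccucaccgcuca
The 5 seeds all differ. The miR-205 hairpin (chromosome 1, 209432133 to 209432242, plus strand) lies partly in annotated exons of MIR205HG, the miR-31 hairpin (chromosome 9, 21512115 to 21512185, minus strand) in an intron of MIR31HG, and the miR-675 hairpin (chromosome 11, 1996759 to 1996831, minus strand) in an exon of H19. Reads counted on the miR-205 row numbered 171, 6, 249 and 113 in knockdowns 1 to 4 and 17, 264, 88 and 258 in controls 1 to 4. The row was lowest in knockdown 2 and control 1, where MIR205HG was also lowest. The miR-31 row held between 0 and 7 reads and the miR-675 row held 0 in all 8 libraries, while H19 itself had at least 1738 reads in each. How the counting treated reads that fall in 2 genes, such as H19 and the hairpin in its exon, is not given. The hairpin rows are therefore not read as levels of the mature microRNAs.

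The end of MALAT1 is shown because this RNA has no ordinary polyA tail. An enzyme cuts the transcript in front of a small tRNA-like RNA, mascRNA, and the new end is protected by a helix formed with a genomic A-rich tract. The 60 bases before the cut are in lower case and the 57 bases of the small RNA in capitals (chr11:65506057-65506173, plus strand, GRCh38, GENCODE 29).
MALAT1 end: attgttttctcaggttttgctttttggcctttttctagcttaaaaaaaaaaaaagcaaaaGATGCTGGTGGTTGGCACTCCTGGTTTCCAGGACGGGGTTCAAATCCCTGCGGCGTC
The lower-case part holds a run of 13 A. PolyA RNA is the molecule given in the labels, but their extraction protocol describes depletion of ribosomal RNA, and its part in the MALAT1 level was not tested. The row of this small RNA held 0 reads in all 8 libraries.

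Per length, NEAT1 stood highest of the 9 and HOTAIR lowest. Levels divided by the summed exon length in GENCODE 29 had medians over the 8 libraries, in CPM per kilobase, of 61.98 for NEAT1, 57.1 for MIR205HG, 50.6 for H19, 20.3 for GAS5, 5.51 for MIR31HG, 3.93 for MALAT1, 0.755 for MEG3, 0.0933 for UCA1 and 0.0222 for HOTAIR. Each neighbouring pair in this order overlapped in its range over libraries, so the order of neighbours did not exceed the spread. Farther apart, the ranges of NEAT1 (27.3 to 168) and GAS5 (9.67 to 30.6) both lay above that of MALAT1 (1.86 to 8.64). Exon lengths were 22.8 kilobases for NEAT1, 8.83 for MALAT1, 2.90 for H19 and 0.745 for MIR31HG. The annotation release behind the counts is not given in the sources used here. It was not GENCODE 29, as the counts have a row for TALAM1 (described below), which has no position in GENCODE 29. Values per kilobase therefore depend on how close the exons counted are to GENCODE 29.

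**Figure D1:**
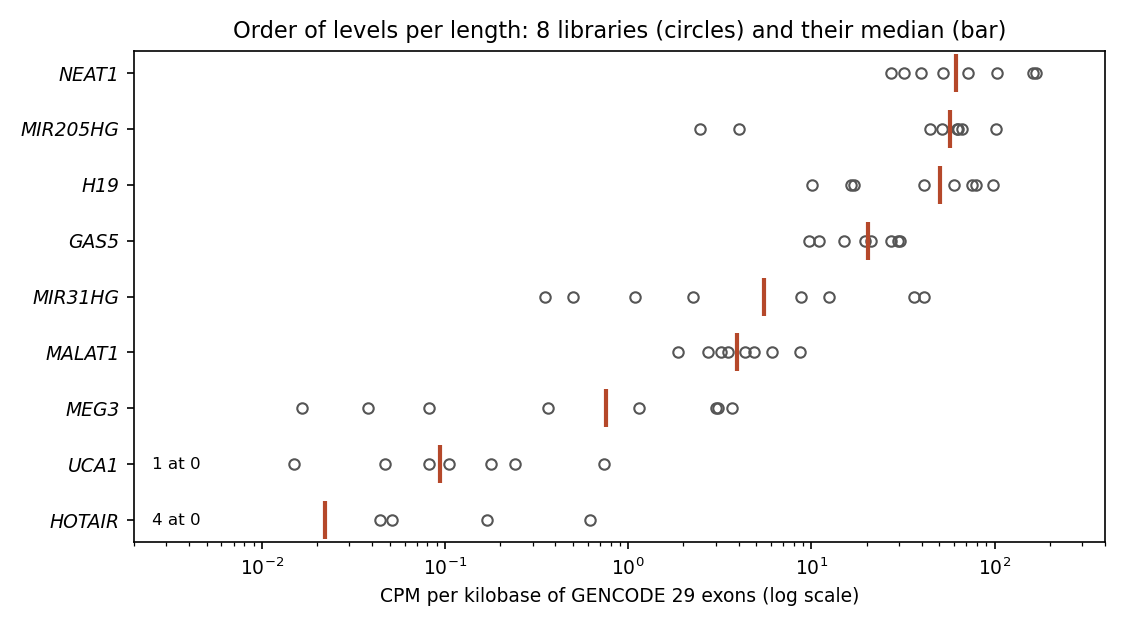
Level per kilobase of GENCODE 29 exons (log scale) of the 9 long noncoding RNAs, with 1 circle per library and a red bar at the median of 8. NEAT1 has the highest median at 61.98 CPM per kilobase and HOTAIR the lowest at 0.0222; libraries at 0 are given as a number at the left.

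MALAT1 was low for a gene usually among the most abundant nuclear RNAs, and it was higher under the knockdown label in most libraries without passing the test. The gene lies on chromosome 11 from 65497688 to 65506516 (plus strand, GRCh38, GENCODE 29). It stood at 76.3, 31.03, 53.6 and 43.1 CPM in knockdowns 1 to 4 and at 24.1, 16.4, 38.5 and 28.4 CPM in controls 1 to 4. Knockdowns 1, 3 and 4 lay above every control, and knockdown 2 lay below control 3, so the groups overlapped. By edgeR's quasi-likelihood test, knockdown minus control was 1.18 on the log2 scale (SE 0.43). Its edgeR p was 0.0230 before and 0.981 after Benjamini-Hochberg adjustment over every gene tested. Permuting the labels over the CPM values (exact, two-sided) gave p = 0.0571, where 70 assignments allow no p below 0.0286. With each library left out the fold change ran from 0.88 to 1.41, and without the 4 muscle-rich libraries it was 1.97 (edgeR adjusted p = 0.322, 2 libraries per group).

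The MALAT1 counts carry a limit that the other members share in part. TALAM1, the antisense RNA of the MALAT1 locus (matched by symbol, with no position in GENCODE 29), held 0 reads in all 8 libraries, as did the other 3 rows that overlap MALAT1. The 4 rows that overlap NEAT1 were also at 0 throughout. Over all members, 19 of 32 overlapping rows held 0 in every library. How the counting treated reads that fall in 2 genes, and whether it used strand, is not given in the sources used here, and its part in the MALAT1 level was not tested.

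NEAT1 was the most abundant member and varied 6.16-fold between libraries, and its difference by label did not pass the test. The gene spans chromosome 11 from 65422774 to 65445540 (plus strand), next to MALAT1. Its level was 1186, 2338, 3830 and 1636 CPM in knockdowns 1 to 4 and 727, 622, 3692 and 907 CPM in controls 1 to 4. Knockdown 3 and control 3 stood far above the rest, and the other 3 controls were the lowest of all 8. The difference by label was 0.92 on the log2 scale (SE 0.79), with an edgeR adjusted p of 0.981 and an exact permutation p of 0.429. It ran from 0.33 without knockdown 3 to 1.76 without control 3, and was 2.22 without the muscle-rich libraries (edgeR adjusted p = 0.415). NEAT1 exceeded MALAT1 by 15.5-fold in knockdown 1 and by 96.0-fold in control 3 in CPM, so the neighbouring genes did not keep 1 ratio.

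Genes for proteins of the same nuclear bodies were described as 2 lists, with each gene read from the same fit and no test of a list as a whole. Of 20 paraspeckle proteins, among them the core members SFPQ, NONO and PSPC1, 0 passed the edgeR test, 9 were fitted higher and 11 lower, with a median log2 fold change of -0.03 (-0.20 scaled by library totals). Of 20 speckle and splicing factors, 0 passed, 10 were higher and 10 lower, with a median of 0.03 that turned to -0.16 scaled by library totals. The median over all 21192 genes tested was -0.05, and -0.21 with that scaling. The most abundant paraspeckle protein genes by mean were HNRNPK, at 186 to 532 CPM, and HNRNPA1, at 130 to 373 CPM. SRRM2 and SON, large scaffold proteins of speckles, stood at 381 to 640 and 267 to 466 CPM.

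**Figure D2:**
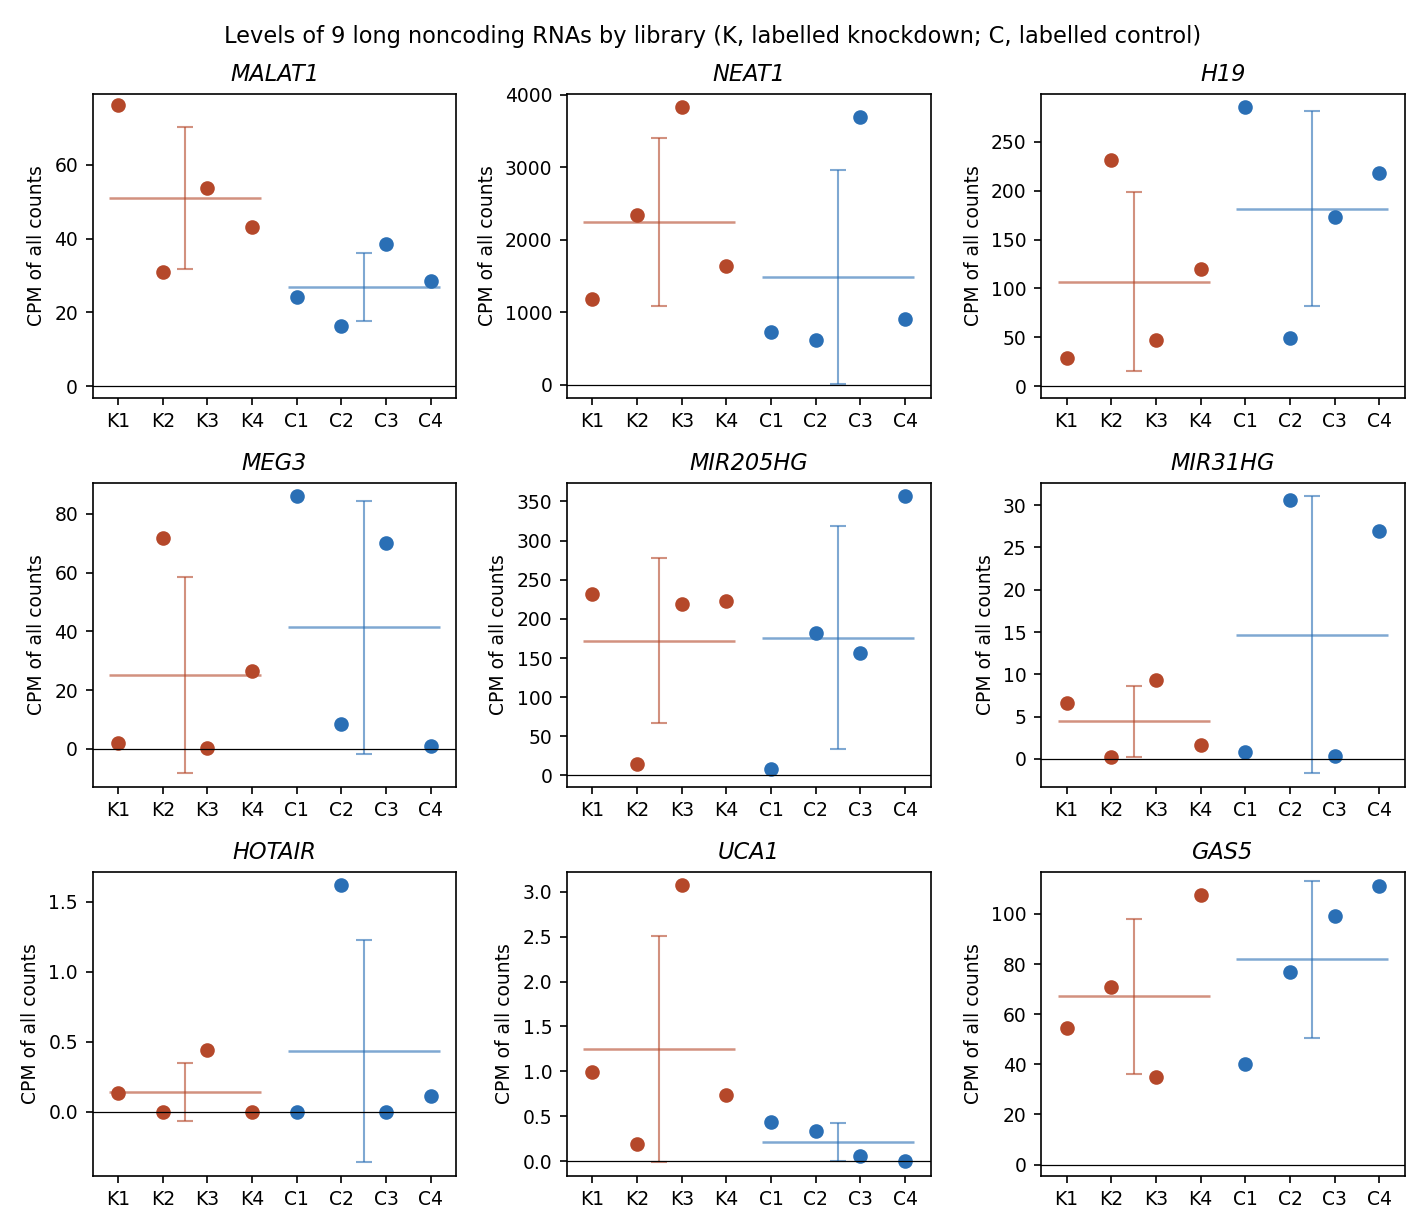
Level of each of the 9 long noncoding RNAs in CPM of all counts (linear axes), with 1 point per library, labelled knockdown (K1 to K4) or control (C1 to C4); lines give the group means and bars the SD (n = 4). The groups overlap for all 9 genes, and the MEG3 panel has its 4 highest points in K2, K4, C1 and C3.

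MEG3 was higher in each of the 4 muscle-rich libraries than in any other, and its difference by label did not pass the test. Its gene spans chromosome 14 from 100779410 to 100861031 (plus strand), in the imprinted DLK1 to DIO3 region. Its level was 1.89, 71.7, 0.384 and 26.6 CPM in knockdowns 1 to 4 and 86.0, 8.41, 70.1 and 0.884 CPM in controls 1 to 4. The 4 muscle-rich libraries held 26.6 to 86.0 CPM and the other 4 held 0.384 to 8.41, with no overlap, and control 2, which had the most muscle transcripts of the other 4, was the highest of them. Of all genes tested by edgeR, 13.8% had their 4 muscle-rich libraries above the other 4 in this way. By label the difference was -0.86 on the log2 scale (SE 1.51), with an edgeR adjusted p of 0.995 and an exact permutation p of 0.629. It ran from -2.15 without knockdown 2 to 0.036 without control 1, and was -1.59 without the muscle-rich libraries (edgeR adjusted p = 0.700).

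Genes next to MEG3 were low outside the muscle-rich libraries, and passed the filter on low counts through the muscle-rich ones. Their levels are therefore given as a description, and not as support for the division of MEG3. MEG8, a noncoding RNA of the same transcribed strand, was at 11.5 to 16.4 CPM in the muscle-rich libraries and at 0.0549 to 2.15 CPM in the others. MEG9, also noncoding, was at 1.73 to 4.97 and 0 to 0.405 CPM. DLK1, a paternally expressed Notch-like protein of muscle and fat precursors, was at 8.25 to 31.04 CPM in the muscle-rich libraries and at 0 in all of the other 4. The paternally expressed RTL1 and DIO3 of the region were at 0.775 to 3.04 and 0.877 to 3.54 CPM, against at most 0.340 and 0.192 CPM. MEG3 exceeded MEG8 by between 2.33-fold and 6.08-fold in 7 libraries, and knockdown 3 had 14 reads of MEG3 and 2 of MEG8, while MEG3 itself varied 224-fold.

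H19 was high in the muscle-rich libraries and in 1 library without muscle. It lies on chromosome 11 from 1995176 to 2001470 (minus strand), beside IGF2. Its level was 29.2, 231, 47.7 and 120 CPM in knockdowns 1 to 4 and 286, 49.5, 173 and 218 CPM in controls 1 to 4. Control 4, with 0.0031% of counts in muscle markers, had more H19 than the muscle-rich control 3 and knockdown 4. IGF2, the fetal growth factor that shares the H19 control region, was at 40.8 to 145 CPM in the muscle-rich libraries and at 4.93 to 19.4 CPM in the others, 5.54 CPM of it in control 4. H19 therefore exceeded IGF2 by 39.3-fold in control 4 and by 1.19-fold to 9.39-fold in the other 7 libraries. The log2 fold change of H19 by label was -0.79 (SE 0.69), with an edgeR adjusted p of 0.981 and an exact permutation p of 0.314, and it ran from -1.35 without knockdown 2 to -0.33 without control 1. Without the muscle-rich libraries it was -1.33 (edgeR adjusted p = 0.595).

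The wider list of imprinted genes had 28 entries, of which 26 passed the filter on low counts. By label 0 of the 26 passed the edgeR test, with 8 fitted higher and 18 lower and a median log2 fold change of -0.44, which ran from -0.95 to 0.35 with each library left out. Several of the list are at or near 0 outside the muscle-rich libraries, DLK1, MEG9, RTL1 and DIO3 among them, and passed the filter through those libraries, so no count over the list is read by this division. GRB10, an adaptor of insulin signalling, had no overlap between the muscle-rich libraries (given first) and the others (29.5 to 74.7 against 6.81 to 27.8 CPM). Of all genes tested, 13.8% had the muscle-rich libraries above in this way. PEG10, a retrotransposon-derived gene (13.7 to 68.0 against 0.0549 to 1.96 CPM), and the sarcoglycan gene SGCE beside it (6.03 to 26.3 against 0.0549 to 3.22 CPM) also had no overlap. Both were near 0 in knockdown 3, so they are not set against that share. PHLDA2, a growth-restraining gene of the placenta, went the other way, at 0.391 to 6.19 CPM in the muscle-rich libraries and 7.01 to 18.2 CPM in the others, as did 5.65% of all genes tested. Others of the list overlapped, among them MEST (7.48 to 22.3 against 1.26 to 63.3 CPM), NDN (12.6 to 24.6 against 0.384 to 32.8 CPM) and ZDBF2 (14.8 to 56.6 against 0.384 to 47.0 CPM). IGF2R and KCNQ1OT1 were the most abundant of the list by mean, at 257 to 735 and 18.4 to 127 CPM. The part of muscle cells in these levels was not tested beyond the marker shares given above.

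MIR205HG had 6 libraries at high level and 2 with little, and the 2 were those with the least squamous markers. It lies on chromosome 1 from 209428820 to 209432838 (plus strand). Its level was 232, 14.2, 219 and 222 CPM in knockdowns 1 to 4 and 8.62, 182, 157 and 357 CPM in controls 1 to 4. Knockdown 2 and control 1 had 0.143% and 0.0574% of counts in squamous markers and were also the libraries with salivary gland transcripts, and the other 6 had 1.60% to 12.3%. Among those 6, the MIR205HG level ran only from 157 to 357 CPM while the squamous share varied more. The log2 fold change by label was 0.31 (SE 1.02), with an edgeR adjusted p of 0.997 and an exact permutation p of 1.0, and it ran from -0.087 without control 1 to 0.95 without control 4. Scaled by library totals it was -0.033, and that scaling also moved the median of all genes from -0.05 to -0.21.

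The squamous master regulator TP63 was at 22.5 CPM in control 1, 34.8 in knockdown 2 and 229 to 644 CPM in the other 6 libraries. MIR205HG stood at between 0.383 and 0.957 of the TP63 level in every library, a narrower range than the 41.4-fold range of MIR205HG itself. TP63 and DSG3 are themselves among the squamous markers. The desmosomal cadherin DSG3 was the gene most like MIR205HG over the 8 libraries (Pearson r = 0.99 on log2(CPM + 1), as a description). TINCR, a long noncoding RNA of epidermal differentiation, was at 0.190 CPM in control 1, 5.34 in knockdown 2 and 19.4 to 53.3 CPM in the other 6.

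MIR31HG and HOTAIR were lower in each of the 4 muscle-rich libraries than in any other. MIR31HG lies on chromosome 9 from 21455642 to 21559669 (minus strand). Its level was 6.54, 0.261, 9.30 and 1.67 CPM in knockdowns 1 to 4 and 0.816, 30.7, 0.372 and 26.9 CPM in controls 1 to 4. The 4 muscle-rich libraries held 0.261 to 1.67 CPM and the other 4 held 6.54 to 30.7, with no overlap, a direction seen in 5.65% of all genes tested. Knockdown 4, which had 5.58% of counts in squamous markers beside its muscle transcripts, was the highest of the muscle-rich libraries. Among the other 4, knockdowns 1 and 3 had more squamous markers (12.3% and 9.55%) than controls 2 and 4 (5.86% and 4.31%) but less MIR31HG. The part of squamous cells in the MIR31HG level was not tested. By label the difference was -1.30 on the log2 scale (SE 1.44), with an edgeR adjusted p of 0.984 and an exact permutation p of 0.371, and it ran from -2.09 without knockdown 3 to -0.69 without control 2.

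Other genes of chromosome 9p21 differed among themselves in which libraries were high. Of the 10 listed, 8 passed the filter on low counts, 0 passed the edgeR test by label, and 4 were fitted higher and 4 lower. The antisense RNA CDKN2B-AS1 was lower in each muscle-rich library than in any other (0.381 to 1.86 against 3.12 to 5.74 CPM), as were 5.65% of all genes tested. IFNE, the epithelial interferon inside the MIR31HG gene, was at 0.0620 to 0.219 against 0.465 to 3.09 CPM, and ELAVL2 at 0.164 to 0.456 against 0.960 to 3.95 CPM. IFNE and ELAVL2 passed the filter through the libraries that were not muscle-rich, so they are not set against that share. The cell cycle inhibitor CDKN2A was at 36.5 CPM in control 4, 13.9 in knockdown 1 and 13.3 in knockdown 3 but at 0.518 in control 2, the library with the most MIR31HG. CDKN2B, the adjacent inhibitor, was likewise at 3.48 CPM in control 2 against 184 to 387 CPM in control 4, knockdown 1 and knockdown 3. MTAP, an enzyme of methionine salvage between them and MIR31HG, was highest in control 2, at 138.0 CPM against 18.3 to 54.4 CPM.

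HOTAIR was detected in 4 of the 8 libraries and only at a low level. The locus is on chromosome 12 from 53962308 to 53974956 (minus strand), where its end overlaps HOXC11 on the other strand. Reads numbered 8, 0, 16 and 0 in knockdowns 1 to 4 and 0, 100, 0 and 6 in controls 1 to 4, or 0.133, 0.439, 1.62 and 0.115 CPM where any were found. The 4 libraries at 0 were the muscle-rich ones, where a count of 0 allows up to 0.0816 to 0.0978 CPM, for counting error only. HOTAIR did not pass the filter on low counts and has no fitted fold change. The mean was 0.143 ± 0.207 CPM (SD, n = 4) in knockdown and 0.433 ± 0.792 CPM (SD, n = 4) in control, with an exact permutation p of 0.886. Without control 2 the difference turned, from -0.290 to 0.104 CPM.

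Genes of the HOXC cluster were low in the same libraries. Of the 13 listed, 5 passed the filter, and HOXC6, HOXC8, HOXC11 and HOXC13-AS did so through the other 4 libraries, being at most 0.186, 0.310, 0.164 and 0.329 CPM in the muscle-rich ones, so no count over the list is read by this division. By label 0 of the 5 passed the edgeR test, 2 were fitted higher and 3 lower. HOXC11 was at 0 to 0.164 CPM in the muscle-rich libraries and 0.781 to 5.08 CPM in the others, and control 2 was the highest as for HOTAIR. HOXC13, a gene of hair and tongue epithelium, was at 5.07 CPM in knockdown 4, at most 0.0652 CPM in the other 3 muscle-rich libraries and 5.48 to 12.4 CPM in the rest. Its antisense RNA HOXC13-AS was at no more than 0.329 CPM in the muscle-rich libraries and at 2.04 to 4.38 CPM in the rest. HOXC10 was at 2.31, 6.21 and 3.34 CPM in knockdown 1, control 2 and control 4 and at 0 in the other 5, among them knockdown 3, which did have HOTAIR reads. Of the 10 polycomb and partner genes with which HOTAIR is known to be associated, EZH2 and SUZ12 among them, 0 passed the edgeR test, 4 were fitted higher and 6 lower, with a median log2 fold change of -0.17. The most abundant were RCOR1, at 23.3 to 311 CPM, and RBBP4, at 53.2 to 144 CPM.

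**Figure D3:**
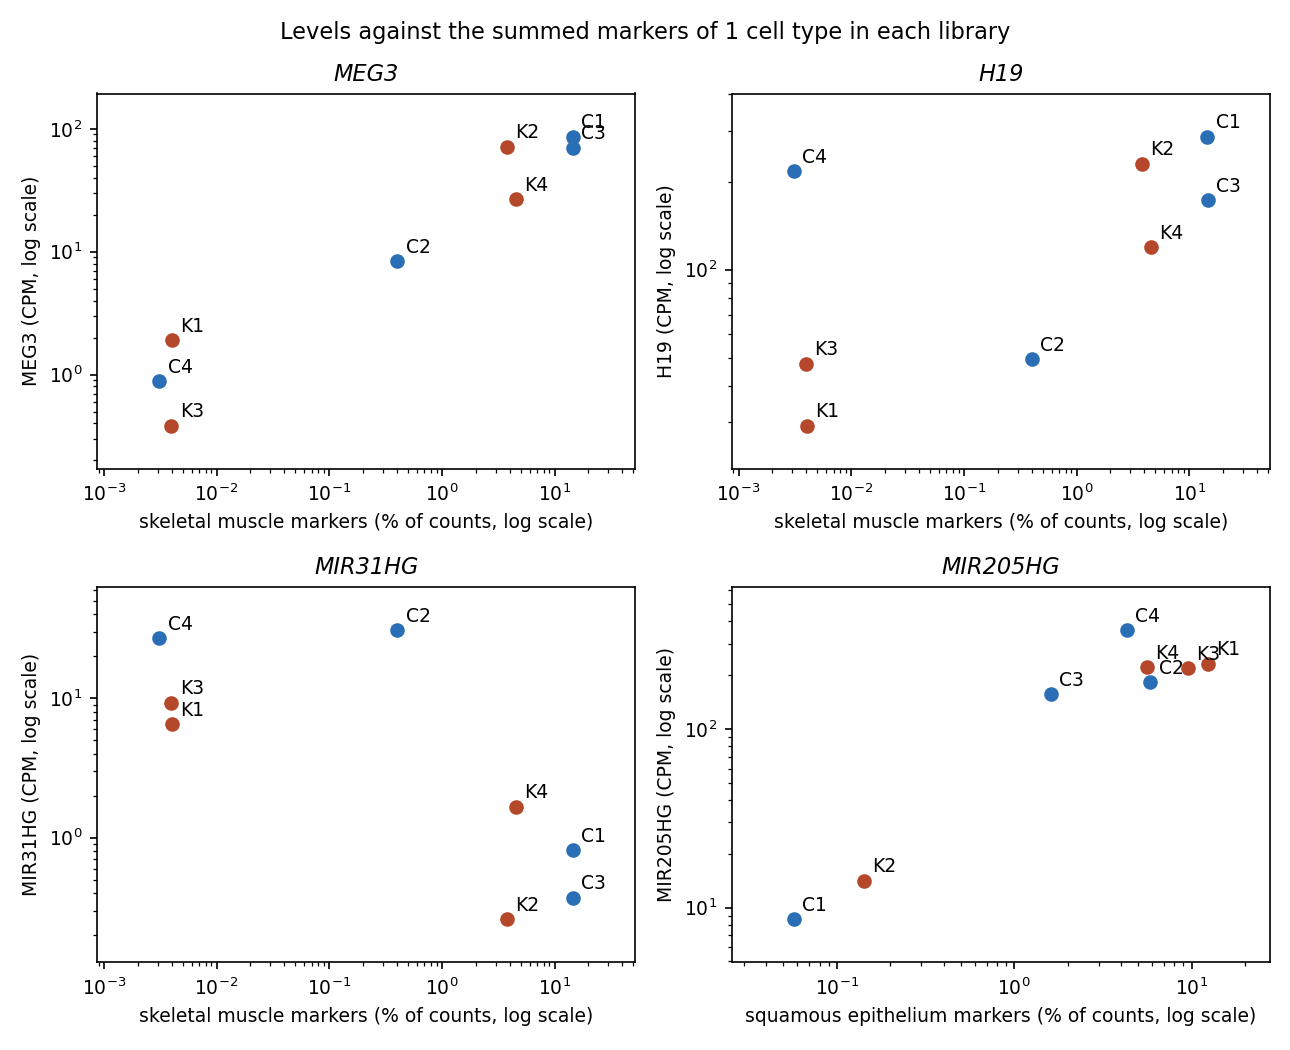
Level of 4 long noncoding RNAs in CPM against the share of counts in skeletal muscle markers (MEG3, H19, MIR31HG) or squamous epithelium markers (MIR205HG) per library, both axes on log scales, with knockdown (K) in red and control (C) in blue. MEG3 lies at 26.6 to 86.0 CPM in the 4 libraries with over 1% muscle markers and MIR31HG at 0.261 to 1.67 CPM in them, and H19 in C4 lies at 218 CPM with few muscle markers.

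MIR205HG, MEG3 and MIR31HG differ in the bases around their RefSeq starts. The RefSeq windows (for MEG3, the first of 3 listed; GRCh38.p14, 250 bases before to 50 after the start) are shown with each CpG in capitals, as these dinucleotides are the sites of DNA methylation at imprinted and tissue-specific promoters.
MIR205HG (chr1:209428570-209428869, plus strand): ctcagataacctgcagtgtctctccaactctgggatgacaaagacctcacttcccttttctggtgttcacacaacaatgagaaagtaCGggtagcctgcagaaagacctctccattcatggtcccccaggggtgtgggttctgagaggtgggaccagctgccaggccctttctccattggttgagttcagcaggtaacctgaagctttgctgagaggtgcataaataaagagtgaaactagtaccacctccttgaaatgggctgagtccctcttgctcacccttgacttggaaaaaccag
MEG3 (chr14:100825858-100826157, plus strand): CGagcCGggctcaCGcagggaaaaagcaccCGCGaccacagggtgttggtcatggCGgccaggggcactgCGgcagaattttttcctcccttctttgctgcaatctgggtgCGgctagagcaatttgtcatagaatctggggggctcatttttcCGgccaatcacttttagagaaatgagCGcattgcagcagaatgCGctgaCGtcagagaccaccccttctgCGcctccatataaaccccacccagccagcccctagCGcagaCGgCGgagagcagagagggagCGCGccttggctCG
MIR31HG (chr9:21559749-21560048, minus strand): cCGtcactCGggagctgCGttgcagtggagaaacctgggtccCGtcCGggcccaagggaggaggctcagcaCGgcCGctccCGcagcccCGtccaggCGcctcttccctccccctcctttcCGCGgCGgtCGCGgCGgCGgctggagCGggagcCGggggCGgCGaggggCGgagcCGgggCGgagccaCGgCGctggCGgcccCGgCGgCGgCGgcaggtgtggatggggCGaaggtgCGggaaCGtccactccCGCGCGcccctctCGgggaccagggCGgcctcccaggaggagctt
The windows held 1 CpG for MIR205HG, 19 for MEG3 and 39 for MIR31HG, and the median over 35093 such windows was 14. Of all windows, 89.0% had more CpG than that of MIR205HG and 7.61% had more than that of MIR31HG. The motif TATAAA, searched on both strands, had 1 match in the MEG3 window and 0 in the others, and 11.5% of all windows held it. A window was found for 6 of the 9 members. RefSeq and GENCODE 29 place the MEG3 start differently, and the window shown lies inside the GENCODE gene, downstream of its start at 100779410.

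UCA1 was near the lower limit of detection and higher under the knockdown label in 3 libraries, without passing the test. Its locus is chromosome 19 from 15828206 to 15836326 (plus strand). Reads numbered 60, 6, 112 and 27 in knockdowns 1 to 4 and 16, 21, 2 and 0 in controls 1 to 4, which is 0.997, 0.196, 3.07 and 0.740 CPM and 0.435, 0.340, 0.0620 and 0 CPM. Knockdowns 1, 3 and 4 lay above every control, while knockdown 2 lay below controls 1 and 2. On the log2 scale the difference was 2.83 (SE 1.31), at an edgeR p of 0.0601 unadjusted and 0.981 adjusted and an exact permutation p of 0.0857. It ran from 1.69 without knockdown 3 to 3.60 without control 1. The squamous share of counts in knockdowns 1, 3 and 4 was 12.3%, 9.55% and 5.58%, against 0.0574% to 5.86% in the controls, and its part in the UCA1 level was not tested.

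The CYP4F genes, fatty acid hydroxylases that flank UCA1, were fitted higher under the knockdown label in 4 of the 4 that passed the filter, with 0 of them called by edgeR. CYP4F22, an enzyme of skin barrier ceramides, stood at 54.9, 0, 52.7 and 67.04 CPM in knockdowns 1 to 4 and at no more than 1.52 CPM in the controls, so its groups overlapped through knockdown 2. Its log2 fold change was 6.20 (SE 1.72, edgeR adjusted p = 0.981). DESeq2 called CYP4F22 and CYP4F2 higher (adjusted p = 0.00378 and 0.0140), beside 0.517% of the genes it tested, and CYP4F2 had 0.548, 0, 2.36 and 0.329 CPM in knockdown and 0 in all 4 controls. CYP4F12, the most abundant by mean after CYP4F22, was at 3.52 to 32.6 CPM in knockdown and 0.227 to 26.1 CPM in control. CYP4F11 was at 15.4, 8.05, 4.55 and 26.9 CPM in knockdowns 1 to 4 and at 0.109, 0.0971, 4.37 and 4.13 CPM in controls 1 to 4. Its groups did not overlap, which was so for 2.35% of all genes tested, and its edgeR adjusted p was 0.981 with a log2 fold change of 2.88 (SE 1.204).

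GAS5 was the steadiest member, with a 3.17-fold range over the 8 libraries. It lies on chromosome 1 from 173863900 to 173868882 (minus strand) and overlaps ZBTB37 and GAS5-AS1 on the other strand. Its level was 54.5, 70.9, 35.1 and 108 CPM in knockdowns 1 to 4 and 40.2, 76.8, 99.2 and 111 CPM in controls 1 to 4. Each group had its lowest library (knockdown 3, control 1) and its highest (knockdown 4, control 4) at nearly the same level. The difference by label was -0.13 on the log2 scale (SE 0.36), with an edgeR adjusted p of 0.997 and an exact permutation p of 0.514, and it ran from -0.36 to 0.059 with each library left out. Without the muscle-rich libraries it was -0.63 (edgeR adjusted p = 0.629).

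Other snoRNA hosts, genes that like GAS5 release snoRNAs from their introns, were described as a list of 25, with no test of the list as a whole. By label 0 passed the edgeR test, 16 were fitted higher and 9 lower, with a median log2 fold change of 0.09 that turned to -0.089 scaled by library totals. The most abundant by mean were RACK1, a ribosome-bound protein (270 to 746 CPM), and EIF4A2, a helicase of translation initiation (130 to 392 CPM). SNHG29, a noncoding host, was at 70.8 to 177 CPM. The 10 factors of nonsense-mediated decay, the pathway that degrades spliced GAS5, had 0 called, 7 fitted higher and 3 lower, and a median of 0.09 that turned to -0.094 with that scaling. SMG1, its kinase, and SMG5 were the most abundant by mean, at 170 to 481 and 81.7 to 182 CPM.

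By label, then, 0 of the 8 members that passed the filter were called by edgeR at an adjusted p under 0.05, beside 0.0% of the 21192 genes tested, and DESeq2 called 0 members as well. Their edgeR adjusted p-values ran from 0.981 to 0.997. At an unadjusted p under 0.05 stood 1 of the 8, MALAT1, beside 4.78% of all genes tested. In the fit 4 members were higher in knockdown (UCA1, MALAT1, NEAT1 and MIR205HG, which turned with library totals) and 4 lower (MIR31HG, MEG3, H19 and GAS5). The groups overlapped for all 9 members, beside 2.35% of genes tested whose groups did not. A p that misses the threshold does not show that the levels were alike.

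**Figure D4:**
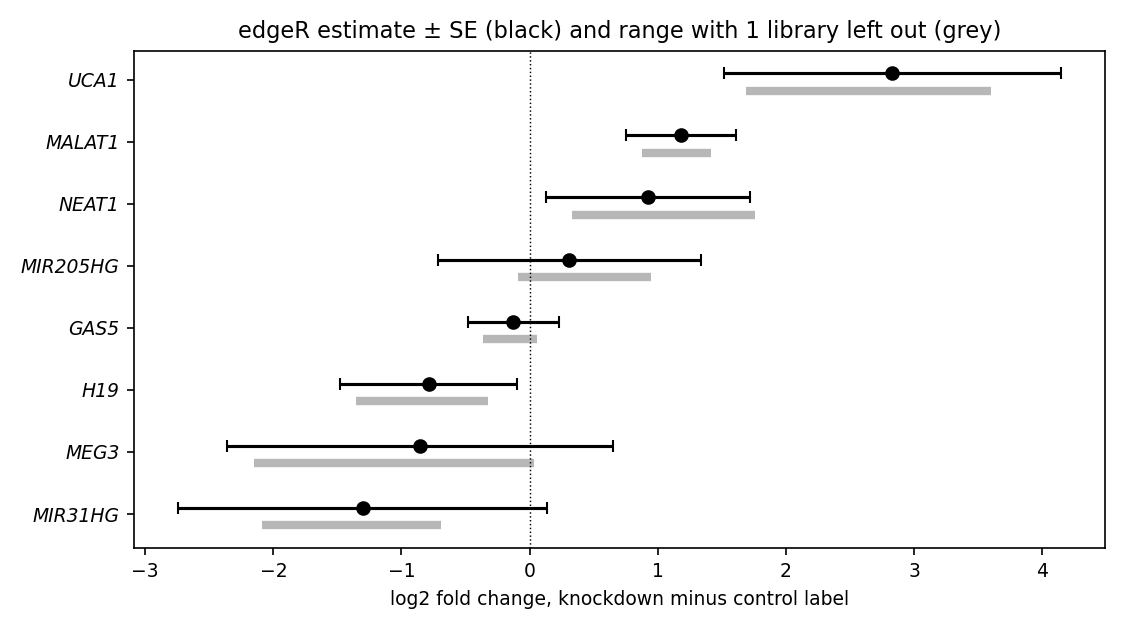
Log2 fold change (knockdown minus control label) of the 8 members that passed the filter on low counts, as the edgeR estimate with its SE (black, n = 4 per group) and the range of estimates with each library left out (grey). UCA1 is highest at 2.83 and MIR31HG lowest at -1.30, and the grey ranges of MIR205HG, GAS5 and MEG3 cross 0.

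A pair of further lists set the members among other noncoding RNAs. Of 26 other microRNA hosts, 21 passed the filter, 0 were called by label, 4 were fitted higher and 17 lower, and the median log2 fold change was -0.53. MIR1-1HG and MIR133A1HG, hosts of the muscle microRNAs miR-1 and miR-133, were at 3.95 to 20.3 and 24.3 to 103 CPM in the muscle-rich libraries and at most 0.113 and 1.02 CPM in the others. The libraries were divided by muscle transcripts, and MIR1-1HG passed the filter through the muscle-rich ones. The levels of these hosts are therefore a description and not a separate result. MIR23AHG and MIR99AHG were the most abundant by mean, at 13.9 to 337 and 0.961 to 140 CPM. Of 40 other long noncoding RNAs, 36 matched a row and 29 passed the filter, with 0 called, 14 higher, 15 lower and a median of -0.08. NORAD and OIP5-AS1 were the most abundant by mean, at 264 to 579 and 104 to 250 CPM, and both varied less than any member.

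The genes whose pattern was most like each member were taken as the 5 with the highest Pearson r of log2(CPM + 1) over the 8 libraries, so all points share the same libraries and their depths. The measure is a description with no test, over libraries that differ in their muscle and squamous transcripts as given above. For MEG3 (r from 0.994 to 0.996) they were TNS1, LMCD1, MAP2K6, TNS2 and AOC3. TNS1 and TNS2 are tensins, which link integrins to actin, and LMCD1 is a LIM protein of muscle. For H19 (0.939 to 0.959) they were TRAPPC9, SLC29A2, TMEM8B, PHKA1, the muscle phosphorylase kinase subunit, and ZSCAN18. For MIR205HG (0.985 to 0.993) they were DSG3, CAPNS2, BCL11B, PAQR7 and EXOC6B. For MIR31HG (0.968 to 0.976) they were ULK1, SLC38A7, PUF60, TGFB1 and NXN. For UCA1 (0.906 to 0.943) they were SPINK6, IL36G, SH3D21, LCE3D and PDZK1IP1. SPINK6, IL36G and LCE3D are genes of late epidermal differentiation or its inflammation. UCA1 and all 5 of these genes were highest in the same library. Of the 5 names for UCA1, 0 remained with Spearman's rho and 1 with a pseudocount of 0.1, so no shared function is read from them.

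For MALAT1 (0.890 to 0.965) they were KDM7A, MXI1, ABLIM1, RNF39 and BDH1, and the histone demethylase KDM7A had the same order of libraries as MALAT1 (Spearman rho = 1). For NEAT1 (0.875 to 0.926) they were SLC19A2, NAMPT, PER3, GOLGA8A and NFKBIZ. NFKBIZ, an NF-kB cofactor, and NAMPT, an enzyme of NAD synthesis, had their highest levels in control 3 (263 and 630 CPM) and their second highest in knockdown 3 (169 and 277 CPM), the libraries with the most NEAT1. Both were picked for their likeness to NEAT1, so this is not a separate result. For GAS5 (0.963 to 0.979) they were SYNE2, TBCK, BPTF, WLS and CNOT10.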

How the data were processed

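RNA-seq read counts of 8 libraries (4 labelled knockdown, 4 labelled control) were used as deposited: whole-number counts per Ensembl gene, not normalised. STAR, featureCounts (Subread) and hg38 are named in the submitters' processing notes; which versions, annotation release and strand setting were used is not stated there. In the column names the treatment is a knockout, not a knockdown, and columns were matched to libraries by group and number. A symbol was matched to 62666 of 63241 rows. Depth was 30684584 to 61795990 counts; a count of 0 allows up to 3 counts, for counting error only.

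CPM used column totals. Knockdown and control were compared with edgeR 4.0.16 (quasi-likelihood, TMM, filterByExpr, 21192 genes kept, Benjamini-Hochberg over all of them, threshold 0.05; R 4.3.3), and single values with exact two-sided permutation tests. Alternatives were DESeq2 1.42.0, limma-voom 3.58.1, RLE factors, library totals, other filters, totals without genes over 1% of counts, a replicate block and each library left out; leaving out the muscle-rich libraries was added after the data were seen. The fits were checked on simulated counts. The rule for named genes took all 9 members, the 5 genes most like each (mean of at least 10 CPM), and called or the 2 most abundant genes of each list; other list members shown were chosen after their values were seen. Members and lists were chosen with earlier results of these data known. Coordinates and exon lengths are from GENCODE 29.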

Additional observations from a re-analysis of the deposited data

Results flagged for a closer look

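In 3 of 18 groups of 4 libraries (9 genes, 2 labels) the highest or lowest library stood apart from the other 3 by more than the 95% limit of Dixon's test. For normally distributed values chance passes that limit in about 1 group in 20. CPM values are bounded at 0 and these libraries differ in their cell type markers, so the flags are not set against that rate. NEAT1 was at 3692 CPM in control 3 against 622 to 907 CPM in the other controls. MIR205HG was at 14.2 CPM in knockdown 2 against 219 to 232 CPM in the other knockdown libraries. HOTAIR was at 1.62 CPM in control 2 against 0 to 0.115 CPM in the other controls.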

How the results depend on the processing

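No member was called under any alternative: of 135 refitted log2 fold changes of the 8 members, 130 kept their direction, and the lowest adjusted p was 0.322 (MALAT1, edgeR without the muscle-rich libraries). The 5 that turned were MEG3 without control 1 (0.036, in a range from -2.15), MIR205HG without control 1 (-0.087, in a range up to 0.948) and with library totals (-0.033), and GAS5 without knockdown 3 and without control 4 (0.059, in a range from -0.361). The HOTAIR difference turned without control 2 (0.104 CPM, in a range from -0.435). Over all genes, edgeR called 0 (1013 at an unadjusted p under 0.05), limma-voom called 0, DESeq2 called 146, and edgeR called from 0 to 1 gene with each library left out, the 1 without knockdown 2. Same-numbered libraries did not deviate together (correlations of deviations from -0.688 to -0.36). Under each number a muscle-rich library stood beside another that was not, so this check cannot show whether the numbers mark a shared culture or batch. With the replicate number as a block, edgeR called 0 genes, MALAT1 had a log2 fold change of 1.09 and MIR31HG -0.53. Of the 40 genes named as most like a member, 26 remained with a pseudocount of 0.1 and 11 with Spearman's rho, so these names depend on the measure. Depth limits HOTAIR and UCA1 most, with 0 to 112 reads a library.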
